A study of Homo sapiens with 4 samples.

Results

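Aurora A, the Polo-like kinases and their partners in building the mitotic spindle were followed in PC3, an established human line of prostate cancer cells first grown from a metastasis in bone. The genes were AURKA, PLK1, PLK4, TPX2, NEK2, TACC3, CKAP5, ASPM, HMMR and PRC1, chosen by name as centrosomal and spindle kinases and spindle assembly factors. The array's platform table gave them 19 of 54675 probe sets, each assigned to that gene alone, and all 10 genes were among the 19775 tested. Cells of 2 samples had been transfected with 40 nM of COUP-TFII siRNA, directed at an orphan nuclear receptor, and those of 2 further samples with 40 nM of control siRNA. Total RNA was taken 48 h later. Both groups were grown in RPMI with fetal bovine serum. The cells are 1 established line, no siRNA sequence was used here, and nothing in the labels tells separate transfections from repeat arrays. The p-values therefore cover the spread between arrays alone, and that spread may be technical.

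Spindle assembly starts at the centrosomes. PLK4 starts the duplication of centrioles, NEK2 loosens the link between the duplicated centrosomes, and PLK1 and Aurora A drive centrosome maturation and entry into mitosis. TPX2 binds Aurora A, activates it and holds it on spindle microtubules, where Aurora A phosphorylates TACC3 and so recruits it, together with the microtubule polymerase ch-TOG (CKAP5). ASPM and HMMR act at the spindle poles, and PRC1 bundles antiparallel microtubules in the midzone of the dividing cell. Messenger RNAs of such proteins peak in G2 and mitosis, so their level in a culture also depends on how many cells are dividing, and in such bulk samples fewer expressing cells and less RNA per cell cannot be told apart.

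Many G2 and mitosis promoters hold a cell cycle homology region (letters TTTGAA or TTCGAA), which is bound by MuvB complexes, downstream of CCAAT boxes bound by NF-Y. COUP-TF proteins bind repeats of AGGTCA. The RefSeq promoter table (GRCh38.p14, 250 bases before to 50 after each start site) held windows for 8 of the 10 genes, 10 windows in all because PLK4 had 3. It was searched on both strands. AURKA and TPX2 were not in it. For 5 genes, the 100 bases before the start site are shown, 5′ to 3′ on the gene's strand. Those of NEK2, ASPM and PLK4 are not shown. The log2 fold changes of the 5 ran from −1.55 (PRC1) to −0.28 (CKAP5), and several of their 95% intervals overlap. Whether the letters go with the size of the fall was not tested. Capitals mark matches, on either strand, to TTTGAA of the homology region, to a CCAAT box or to the repeat unit AGGTCA.
PLK1, chr16:23678789-23678888, plus strand: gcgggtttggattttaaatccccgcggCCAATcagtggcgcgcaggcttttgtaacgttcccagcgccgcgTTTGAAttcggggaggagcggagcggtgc
PRC1, chr15:90994536-90994635, minus strand: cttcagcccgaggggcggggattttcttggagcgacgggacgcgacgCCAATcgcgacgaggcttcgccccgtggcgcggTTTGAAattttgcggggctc
HMMR, chr5:163460532-163460631, plus strand: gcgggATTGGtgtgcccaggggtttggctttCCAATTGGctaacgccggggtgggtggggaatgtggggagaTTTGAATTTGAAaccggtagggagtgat
CKAP5, chr11:46846281-46846380, minus strand: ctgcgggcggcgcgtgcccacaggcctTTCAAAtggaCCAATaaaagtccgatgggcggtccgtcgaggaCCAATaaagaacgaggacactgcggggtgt
TACC3, chr4:1720531-1720630, plus strand: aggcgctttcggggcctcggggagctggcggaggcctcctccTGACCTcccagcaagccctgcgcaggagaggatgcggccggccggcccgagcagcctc

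The letters TTTGAA stood in 6 of the 10 windows, and in 15.2% of all 35116 windows of the table. In PRC1 the match began 20 bases before the start site and in PLK1 29 bases before it. HMMR had 2 adjoining matches, beginning 28 and 22 bases before the start site. CKAP5 had 1 match on the opposite strand 73 bases before the start site and 1 inside the transcript, ASPM 1 at 113 bases before it, and PLK4 1 inside the transcript in 1 of its 3 windows. NEK2 and TACC3 had none. CCAAT stood in 7 of the 10 windows, against 34.6% of all windows, and only TACC3 of the 8 genes lacked it. In HMMR, 2 of the CCAAT matches overlap on opposite strands. TTCGAA was in 0 of the 10 (1.45% of all windows). AGGTCA was in 1, that of TACC3, on the opposite strand beginning 58 bases before the start site, against 13.8% of all windows. A direct repeat of AGGTCA with 1 base between its copies was in 0 (0.0228% of all windows). These are matches of letters, and the data hold no measurement of binding.

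All 10 genes were lower after COUP-TFII siRNA. The threshold of an adjusted p of 0.05 (limma, Benjamini-Hochberg over all genes) was passed by 10 of 10, where 10.3% of all genes passed as lower, and 0 were higher, where 12.7% of all genes passed as higher. Of the 10, 8 were at least 2-fold lower, where 1.69% of all genes were lower by that much and past the adjusted p. The 95% intervals of TPX2, HMMR and ASPM also hold falls of under 2-fold. With probe sets averaged, PLK4 and ASPM fell by under 2-fold, and with arrays centred on housekeeping genes NEK2, HMMR, TPX2 and ASPM did. The median log2 fold change was −1.16, against 0.01 over all genes. Both COUP-TFII siRNA arrays lay below both control arrays for all 10, as they did for 26.7% of all genes. PLK1 and CKAP5 passed narrowly, and their calls were lost when any 1 array was left out, so that 8 genes passed in each of those 4 fits. Over all genes, too, fewer passed as lower and as higher with any 1 array left out. Fold changes are on the scale of log2(intensity + 16), which understates changes of dim genes, and intensities of different probe sets are not compared with each other.

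Array medians lay between 31.7 and 32.9 intensity units. Epithelial markers were bright, with summed intensities of 31150 and 31550 in the COUP-TFII siRNA arrays and of 31340 and 31710 in the control arrays over 5 of 5 listed genes. Their members went both ways, with KRT8 (0.16) and KRT18 (0.13) higher and EPCAM (−0.24) and CDH1 (−0.30) lower on the log2 scale, all 4 past the threshold, and KRT19 not past it. The 3 measured luminal prostate markers summed to 427 and 431 in the COUP-TFII siRNA arrays, above 180 and 176 in the control arrays. Within this list KLK3 and KLK2 did not exceed an intensity of 25.9 in any array, while TMPRSS2 had 391 and 392 in the COUP-TFII siRNA arrays, against 132 and 157 in the control arrays, which is higher by 1.35 on the log2 scale (limma adjusted p = 4.75e-05). The 3 measured leukocyte markers summed to between 48.8 and 61.7 in all 4 arrays. The 3 endothelial markers summed to 263 and 206 in the COUP-TFII siRNA arrays, above 180 and 174 in the control arrays, none past the threshold. Most of this was PECAM1, with 244 and 193 in the COUP-TFII siRNA arrays, against 171 and 171 in the control arrays. CDH5 did not exceed 17.8 and VWF was at or below 1.76 in every array. As a sign of RNA integrity, the signal of the ACTB control at the 3′ end over that at the 5′ end was 1.42 and 1.46 in the COUP-TFII siRNA arrays, below 1.52 and 1.83 in the control arrays. The same ratio for GAPDH was 0.994 and 0.986 in the COUP-TFII siRNA arrays and 0.957 and 0.986 in the control arrays. The ACTB ratio and the summed luminal and endothelial markers, mostly TMPRSS2 and PECAM1, thus moved with the groups, and their part in the results was not tested.

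**Figure D1:**
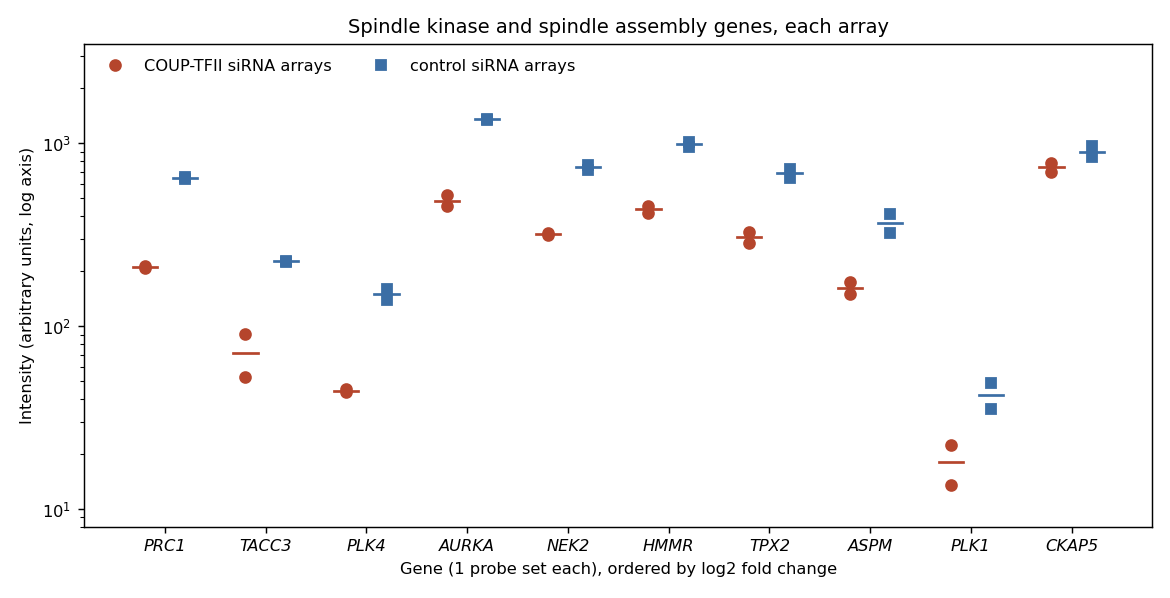
Intensity of 1 probe set per gene on a log axis, in arbitrary units, for COUP-TFII siRNA arrays (circles) and control siRNA arrays (squares), with a line at each mean (n = 2 arrays each). The circles lie below the squares for all 10 genes, with mean intensities of 44.4 against 149.8 for PLK4, the widest ratio, and of 739 against 903 for CKAP5, the narrowest.

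Among the kinases, AURKA, which encodes Aurora A, had intensities of 453 and 519 in COUP-TFII siRNA arrays, against 1366 and 1339 in control siRNA arrays. The 2 groups were far apart compared with the distance within either group. Its log2 fold change was −1.45 ± 0.08 (SE; limma adjusted p = 5.54e-06), which is 2.73-fold lower. A second bright probe set of AURKA, 204092_s_at, gave 315 and 332 in COUP-TFII siRNA arrays, against 787 and 717 in control siRNA arrays, which is −1.18 on the log2 scale (limma adjusted p = 0.000176 over all probe sets). The third, 208080_at, was near the bottom of the scale at 4.44 and 7.01 in COUP-TFII siRNA arrays, against 28.4 and 14.3 in control siRNA arrays, and did not pass (adjusted p = 0.115). Both bright probe sets are marked _s_at, which can match several transcripts.

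PLK4, the kinase that limits centriole number, had intensities of 45.3 and 43.5 in COUP-TFII siRNA arrays, against 140.0 and 159.5 in control siRNA arrays. The log2 fold change was −1.45 ± 0.16 (SE; limma adjusted p = 0.000241). Its other probe sets moved less. Probe set 204887_s_at read 63.3 and 50.7 in COUP-TFII siRNA arrays, against 89.2 and 104 in control siRNA arrays, a log2 fold change of −0.63 with a 95% interval of −1.04 to −0.22 that does not reach the interval of the first probe set, −1.81 to −1.10 in the same fit. It did not pass (adjusted p = 0.0614). The third, 211088_s_at, stayed below 15.1 in every array. Averaged over its 3 probe sets, PLK4 had a log2 fold change of −0.81 (limma adjusted p = 0.0131).

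NEK2, the centrosome separation kinase, had intensities of 314 and 322 in COUP-TFII siRNA arrays, against 765 and 715 in control siRNA arrays. Its log2 fold change was −1.18 ± 0.08 (SE; limma adjusted p = 1.43e-05). Both of its probe sets passed, the dimmer 211080_s_at with a log2 fold change of −0.88 (adjusted p = 0.0319). NEK2 was thus lower on each measure the array holds of it.

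PLK1, the kinase of mitotic entry and cytokinesis, was measured by a single dim probe set. It read 13.5 and 22.4 in COUP-TFII siRNA arrays, against 49.2 and 35.3 in control siRNA arrays. The groups did not overlap, but the arrays within each group lay almost as far apart, on the log2 scale, as the gap between the groups. The log2 fold change was −0.78 with a 95% interval of −1.32 to −0.24 (limma adjusted p = 0.043). The adjusted p was 0.248 without control siRNA replicate 1, 0.109 without control siRNA replicate 2, 0.268 with COUP-TFII siRNA replicate 1 left out and 0.105 with replicate 2 of that group left out. No alternative gave a higher value than 0.268. In the fit over all probe sets it did not pass (adjusted p = 0.106). With a pseudocount of 1 in place of 16 the log2 fold change was −1.21 (adjusted p = 0.0632). Its adjusted p was the highest among the 4 kinases.

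Among the partners of Aurora A, TPX2 had intensities of 286 and 328 in COUP-TFII siRNA arrays, against 722 and 649.6 in control siRNA arrays, with 1 probe set. Its log2 fold change was −1.12 ± 0.10 (SE; limma adjusted p = 5.33e-05). TACC3, which Aurora A recruits to the spindle, had intensities of 53.1 and 90.3 in COUP-TFII siRNA arrays, against 224 and 229 in control siRNA arrays. The COUP-TFII siRNA arrays differed from each other far more than the control arrays did. Its change of −1.50 ± 0.20 on the log2 scale (SE; limma adjusted p = 0.000667) was −1.19 with COUP-TFII siRNA replicate 1 left out and −1.81 with replicate 2 of that group left out, and it passed in both fits.

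CKAP5, the microtubule polymerase that works with TACC3, changed least of the 10. It had intensities of 783 and 695 in COUP-TFII siRNA arrays, against 963 and 842 in control siRNA arrays. The groups did not overlap, but the lower control array was closer to a COUP-TFII siRNA array than to the other control array. The log2 fold change of −0.28 had a 95% interval of −0.48 to −0.08 (limma adjusted p = 0.0464), which does not reach the intervals of the other genes except that of PLK1. Among these others the interval nearest to it was that of ASPM, −1.40 to −0.79. The adjusted p of CKAP5 was 0.332 without control siRNA replicate 1, 0.0955 without control siRNA replicate 2, 0.1 with COUP-TFII siRNA replicate 1 left out and 0.283 with replicate 2 of that group left out. Centring the arrays on housekeeping genes left a log2 fold change of −0.06 (adjusted p = 0.585, the highest of its alternatives). That centring largely follows the gene PGK1, which itself fell (−0.26 on the log2 scale). Its second probe set, 1555278_a_at, read 199 and 182 in COUP-TFII siRNA arrays, against 196 and 215 in control siRNA arrays, and these overlap.

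The spindle pole and midzone proteins fell by more than 2-fold in the main fit, though the intervals of HMMR and ASPM also hold smaller falls. PRC1, the midzone bundling protein, had intensities of 208 and 214 in COUP-TFII siRNA arrays, against 659 and 641 in control siRNA arrays. Within each group the arrays were close together. Its change of −1.55 ± 0.08 on the log2 scale (SE; limma adjusted p = 5.51e-06) was the lowest of the 10. The intervals of PRC1, TACC3, PLK4 and AURKA overlap, so their order is not settled by these arrays. Those of TACC3, PLK4 and AURKA also overlap the intervals of NEK2, HMMR, TPX2, ASPM and PLK1, and that of PRC1 overlaps the interval of ASPM.

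HMMR, a hyaluronan receptor that also binds spindle microtubules, had intensities of 418 and 456 in COUP-TFII siRNA arrays, against 1019.8 and 957 in control siRNA arrays. The log2 fold change was −1.15 ± 0.08 (SE; limma adjusted p = 1.43e-05). Its 2 probe sets gave nearly the same change, −1.15 and −1.20 on the log2 scale, and both passed. ASPM, the spindle pole protein whose loss causes microcephaly, had intensities of 150.4 and 175 in COUP-TFII siRNA arrays, against 413 and 322 in control siRNA arrays. Its log2 fold change was −1.09 ± 0.14 (SE; limma adjusted p = 0.000472). Of its other probe sets, 232238_at passed with a log2 fold change of −1.41 (adjusted p = 0.00478) and 239002_at did not, at −0.42 (adjusted p = 0.257), and their intervals do not meet.

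**Figure D2:**
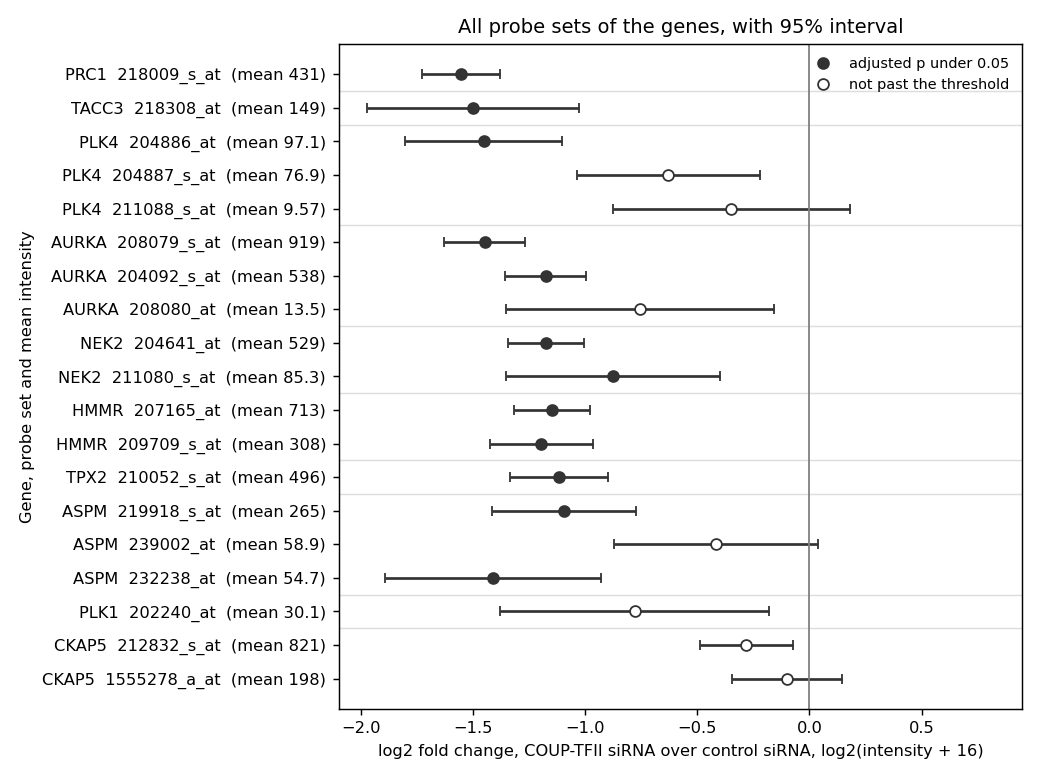
Log2 fold change, COUP-TFII siRNA over control siRNA on the log2(intensity + 16) scale, with its 95% interval for all 19 probe sets, grouped by gene, with the mean intensity over 4 arrays beside each name. Filled points passed an adjusted p of 0.05 in the fit over all probe sets (12 of 19), and open points did not (7 of 19), among them the only probe set of PLK1 and both of CKAP5.

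Counted by probe set, 12 of 19 passed as lower and 0 as higher, where 5.67% of all 54613 probe sets passed as lower and 6.51% as higher. COUP-TFII siRNA arrays lay below both control arrays in 18 of 19, which held for 24.1% of all probe sets. Probe sets of 1 gene share its transcript and are not independent. Among the 7 that did not pass, 3 had a mean intensity under 32. The count of 12 was 5 without control siRNA replicate 1 and 7 without control siRNA replicate 2, and 9 without either COUP-TFII siRNA array.

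The genes most like the 10 in their pattern over the 4 arrays were LRRFIP2, BUB1 and OIP5, measured by the distance between a gene's log2 values, centred on their mean, and the mean profile of the 10. LRRFIP2, which encodes a protein of innate immune signalling, had intensities of 146 and 161 in COUP-TFII siRNA arrays, against 371 and 334 in control siRNA arrays. BUB1, a spindle checkpoint kinase, had 268 and 285 in COUP-TFII siRNA arrays, against 690.2 and 628 in control siRNA arrays. OIP5, a factor that helps load the centromeric histone, had 227 and 238 in COUP-TFII siRNA arrays, against 577 and 530.1 in control siRNA arrays. Averaged over their probe sets, LRRFIP2 had a log2 fold change of −0.23 (adjusted p = 0.307) and BUB1 one of −0.43 (adjusted p = 0.108). HMMR and TPX2 lay closest to the mean profile among the 10 themselves, and CKAP5 farthest from it. With 4 arrays such likeness says little beyond a fall of the same size.

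Lists of genes that work beside these 10 were read from the same fit. All 12 mitotic kinesins fell, where 10.3% of all genes passed as lower. Their median log2 fold change was −1.10, among them KIF14 (−1.38), KIF18B (−1.27) and KIF20A (−0.99), motors of the spindle and midzone. With probe sets averaged 11 of the 12 kinesins passed, and not every call held with 1 array left out. Of 14 other spindle and midzone proteins 12 fell and 0 rose, with a median of −1.34, where 12.7% of all genes passed as higher. ANLN, a scaffold of the contractile ring, had intensities of 906 and 892 in COUP-TFII siRNA arrays, against 2311 and 2244 in control siRNA arrays. ECT2, the activator of RhoA in cytokinesis that is recruited to the midzone where PRC1 acts, had 447 and 429 in COUP-TFII siRNA arrays, against 1268 and 1202 in control siRNA arrays, and its change of −1.46 on the log2 scale became −0.77 over the mean of its 3 probe sets (adjusted p = 0.0104). NUSAP1, which binds spindle microtubules, changed by −1.41 ± 0.07 on the log2 scale (SE; limma adjusted p = 2.77e-06). The 2 that did not pass, CLASP1 (0.31) and CLASP2 (0.10), are microtubule plus-end proteins and were singled out after their values were seen. CLASP1 passed with the replicate block (adjusted p = 0.0369), centring on housekeeping genes (0.0008) or dim features left out (0.0111), and CLASP2 with centring (0.0277). Over all genes 6321 of 19775 passed as higher with centring, and 3178 of 12768 with dim features left out.

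A list that joins regulators and targets of Aurora A and the Polo kinases moved in both directions. Among 11 measured there were 5 falls, 3 rises and 3 that did not pass, and the median was −0.27. The shares over all genes were 10.3% lower and 12.7% higher. CEP55, a substrate of PLK1 at the midbody, had a log2 fold change of −1.16, and FBXO5, an inhibitor of the anaphase-promoting complex that PLK1 marks for destruction, one of −0.69. The others that fell, named after their values were seen, were BORA (−0.92), the cofactor through which Aurora A activates PLK1, the phosphatase gene CDC25C (−1.19) and GTSE1 (−0.63). GTSE1 passed in 0 of the 4 fits that leave out 1 array (adjusted p from 0.067 to 0.153), and CDC25C did not pass without control siRNA replicate 1 (0.122), control siRNA replicate 2 (0.0544) or COUP-TFII siRNA replicate 1 (0.0934). With probe sets averaged neither passed, with CDC25C at −0.46 (adjusted p = 0.0765) and GTSE1 at −0.25 (adjusted p = 0.25). NEDD9, a scaffold that activates Aurora A, had intensities of 913 and 771 in COUP-TFII siRNA arrays, against 532 and 469.6 in control siRNA arrays, which is higher by 0.73 ± 0.10 on the log2 scale (SE; limma adjusted p = 0.000713). NINL, a centrosomal protein regulated by PLK1, rose by 0.59, and AJUBA, another Aurora A activator, by 0.23. NINL did not pass without control siRNA replicate 2 (adjusted p = 0.0642) or when either COUP-TFII siRNA array was left out (adjusted p = 0.0561 for replicate 1 and 0.0633 for replicate 2). AJUBA passed in none of the 4 fits with 1 array left out (adjusted p from 0.0618 to 0.214), and averaged over its probe sets it was at 0.06 (adjusted p = 0.75). Fewer of the 11 passed as lower and as higher with any 1 array left out, and the same held over all genes. Centring on housekeeping genes, which raised the median of all genes by 0.23 (log2), gave 5 lower and 5 higher. That shift is larger in size than the median change of the 11 housekeeping genes, −0.05, with 2 lower, 1 higher and 8 not past the threshold. It was set by the housekeeping gene of middle intensity in each array. That gene was PGK1 in both COUP-TFII siRNA arrays and control siRNA replicate 1, and TFRC in control siRNA replicate 2. PGK1 itself fell (−0.26, limma adjusted p = 0.0038), so centring here largely follows PGK1. Over all genes the split was then 1130 lower and 6321 higher, against 2039 lower and 2519 higher without centring.

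Centriole and spindle pole genes outside the 10 changed in part. Of 14 centriole duplication factors 4 fell and 0 rose, while 10 did not pass, and the median was −0.23, where over all genes 10.3% passed as lower and 12.7% as higher and the median was 0.01. STIL and SASS6, which build the new centriole together with PLK4, had intensities of 146 and 159 (STIL) and 151 and 143 (SASS6) in COUP-TFII siRNA arrays, against 375 and 378 (STIL) and 303 and 294 (SASS6) in control siRNA arrays. POC1A, a centriole stability protein, had a log2 fold change of −1.13. The fourth, RTTN (−0.47, adjusted p = 0.0442), was named after its value was seen, and it passed in 0 of the 4 fits that leave out 1 array (adjusted p from 0.141 to 0.227) and did not pass with probe sets averaged (−0.20, adjusted p = 0.446). Centring on housekeeping genes gave 3 lower and 2 higher, where it gave 1130 lower and 6321 higher of all 19775 genes. Of 18 measured genes of microtubule nucleation and spindle poles 7 fell and 2 rose, with a median of −0.20 and none 2-fold lower. The 2 that rose are a share near that of all genes. MZT1, a subunit of the gamma-tubulin ring complex, had a log2 fold change of −0.56 and HAUS1, a subunit of augmin, one of −0.47. NEDD1, which anchors gamma-tubulin at centrosomes, rose to 1599 and 1520 in COUP-TFII siRNA arrays, against 1063 and 1047 in control siRNA arrays, and NUMA1, a spindle pole organiser, to 441 and 475 in COUP-TFII siRNA arrays, against 343 and 339 in control siRNA arrays. HAUS1 also passed in 0 of the 4 (adjusted p from 0.0539 to 0.0801). MZT1 did not pass without control siRNA replicate 1 (0.0563), nor did NUMA1 without control siRNA replicate 1 (0.0763), control siRNA replicate 2 (0.0878) or COUP-TFII siRNA replicate 2 (0.0723). Averaged over its 5 probe sets, NUMA1 had a log2 fold change of 0.28 and did not pass (adjusted p = 0.299). Calls of this list were lost in every fit with 1 array left out. Each of those fits leaves 1 array in a group, and calls over all genes were also fewer in each. Centring gave 3 lower and 4 higher in this list, beside the same 1130 lower and 6321 higher over all genes.

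Relatives of the kinases and of TACC3 passed about as often as genes at large on the lower side. Of 16 measured paralogs in the Aurora, Polo, NEK and TACC families, 2 fell and 0 rose, while 14 did not pass, and the median was 0.05. Only 12 of the 16 had a mean intensity of at least 32. PLK5, NEK3, NEK5 and NEK10 were dimmer, so for these a missing call does not show an unchanged level. Over all genes 10.3% passed as lower and 12.7% as higher. AURKB, the chromosomal passenger kinase Aurora B, had intensities of 95.5 and 151 in COUP-TFII siRNA arrays, against 422 and 437 in control siRNA arrays, but its change of −1.71 on the log2 scale became −0.55 over the mean of its 2 probe sets (adjusted p = 0.047). NEK4 had intensities of 274 and 274 in COUP-TFII siRNA arrays, against 674 and 597 in control siRNA arrays, and its change of −1.17 on the log2 scale became −0.57 when averaged (adjusted p = 0.0239). PLK2 and PLK3, stress-responsive Polo kinases singled out after their values were seen, had log2 fold changes of −0.28 (adjusted p = 0.0579) and 0.24 (adjusted p = 0.376). PLK2 passed with the replicate block (adjusted p = 0.0409), with quantile normalization (0.0389) and without dim features (0.015). TACC1 and TACC2, also singled out after their values were seen, were at 0.26 (adjusted p = 0.055) and 0.10 (adjusted p = 0.462). TACC1 passed with the replicate block (adjusted p = 0.0131), quantile normalization (0.0381), centring on housekeeping genes (0.00021), dim features left out (0.00399) or control siRNA replicate 1 left out (0.0372), and TACC2 with centring (0.00363). Centring on housekeeping genes gave 2 lower and 6 higher in these families. Over all 19775 genes centring gave 1130 lower and 6321 higher, and leaving out dim features gave 2454 lower and 3178 higher of 12768. The difference between the 10 genes and their relatives was not tested.

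**Figure D3:**
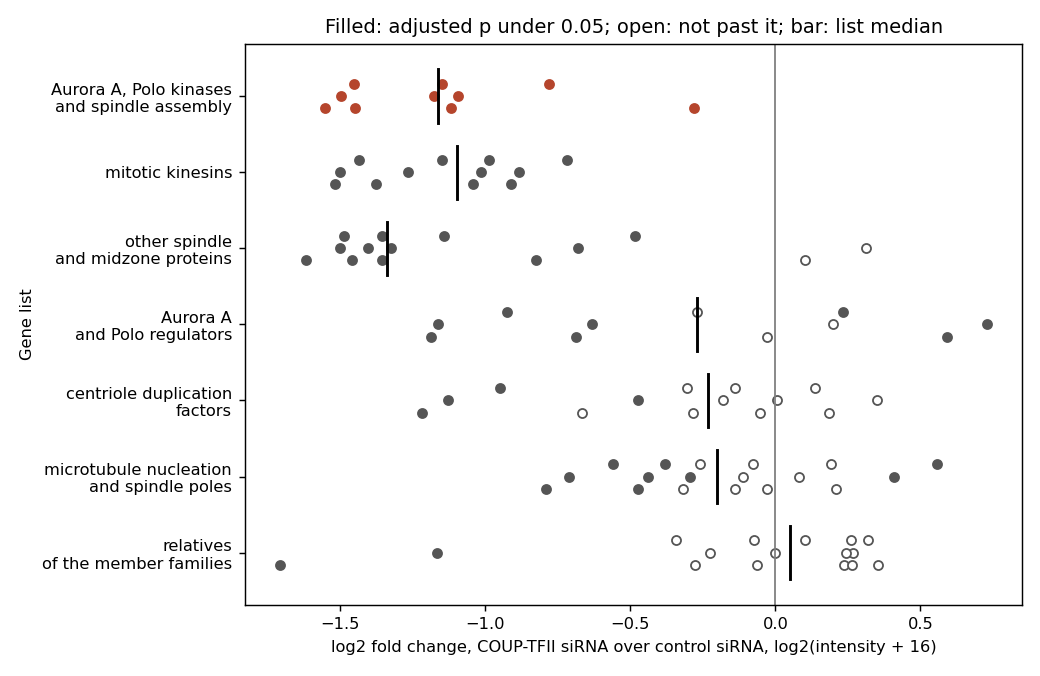
Log2 fold change, COUP-TFII siRNA over control siRNA on the log2(intensity + 16) scale, for each measured gene of 7 lists, with the 10 genes in the top row. Filled points passed an adjusted p of 0.05, open points did not, and the bar is the list median, which is −1.16 for the 10 genes, −1.10 for the mitotic kinesins and 0.05 for the relatives of the same families.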

How the data were processed

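PC3 RNA was hybridised to 1-colour Affymetrix arrays after 3′ IVT labelling, per the labels' protocols. Each deposited value is a linear intensity that the authors computed per probe set, and no detection calls come with it. How probes were summarised, corrected for background and normalized is not given in the sources used here. Array medians differed by at most 3.66%, and no further scaling was applied.

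The platform table assigned exactly 1 gene to 41091 of 54675 probe sets, and symbols were updated through a RefSeq gene table. Each of the 19775 genes was represented by its brightest probe set over all 4 arrays, leaving out _x_at probe sets where another existed. Differences of log2(intensity + 16) went into limma 3.58.1 under R 4.3.3 (intensity trend, no replicate block, Benjamini-Hochberg over all features, threshold 0.05), over genes and separately over all probe sets other than the 62 controls. The test was checked on simulated data. The labels do not say that a replicate number marks a shared batch, so the numbers were not treated as pairs. Deviations of same-numbered arrays of the 2 groups had r = 0.017 across genes, which does not settle whether they were paired.

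The genes described and the lists beside them were chosen with earlier results of these data known. The rule for naming genes took all 10 genes, the 3 smallest p-values of each list with any call against its main direction, every called relative, and the 3 genes most alike. Outside this rule the text names BORA, CDC25C, GTSE1, RTTN, CLASP1, CLASP2, PLK2, PLK3, TACC1 and TACC2, chosen after their values were seen, and markers. Promoter windows came from RefSeq (GRCh38.p14). The target's own transcript is not reported here. Figures were drawn with matplotlib 3.10.9.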

Additional observations from a re-analysis of the deposited data

How the results depend on the processing

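The alternatives were the replicate number as a block, quantile normalization, centring on 11 measured housekeeping genes, pseudocounts of 1 and 64, leaving out features under a mean intensity of 32, 1 prior variance for all features, averaged probe sets, _x_at probe sets allowed, an adjusted p of 0.01, a fold of at least 1.5 and each array left out. No member gene changed direction. Of 149 combinations of a gene and an alternative, 130 kept the call and 19 lost it, all for PLK1 or CKAP5. The count of 10 genes lower was 8 to 10 and the count higher 0 throughout, and 10 with the replicate block. In the probe set fit 12 lower became 6 with 1 prior variance and 5 to 9 with an array left out, and 13 with the replicate block.

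Among regulators and targets of Aurora A and Polo kinases, 5 lower became 3 with 1 prior variance and 3 with averaged probe sets. There, 3 higher became 5 with centring and 1 with 1 prior variance. Both counts were smaller with any array left out, as were those over all genes. Centring gave 1130 lower and 6321 higher of all 19775 genes, against 2039 and 2519 in the main fit. Leaving out dim features gave 2454 lower and 3178 higher of 12768 genes. For centriole duplication factors, 0 higher became 2 with centring and 1 without dim features. For nucleation and poles, 7 lower became 3 with centring, 1 with 1 prior variance, 3 at an adjusted p of 0.01, 2 with a fold of 1.5 and 0 to 3 with an array left out. There, 2 higher became 4 with centring, 1 with 1 prior variance, 1 with averaged probe sets, 0 with a fold of 1.5 and 1 to 2 with an array left out. For other spindle proteins, 0 higher became 1 with the replicate block, 2 with centring and 1 without dim features. For the relatives, 0 higher became 1 with the replicate block, 1 with quantile normalization, 6 with centring, 2 without dim features and 0 to 1 with an array left out. Averaging probe sets turned CLASP2 to −0.013 and TACC2 to −0.044 on the log2 scale, neither of which passed in either form. The causes were not tested. The replicate block changed no other count by over 1.5 times. The number of arrays limits the precision, and the dim probe sets of PLK1, AURKA and PLK4 limit what can be said of them.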
